A study of Mus musculus with 9 samples.

Results

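The genes described here are 10 Fc receptor and Fc receptor-like genes of the mouse, taken by symbol from a table of 55322 genes: Fcer1g, Fcgr1, Fcgr2b, Fcgr3, Fcgr4, Fcer2a, Fcmr, Fcrla, Fcrl1 and Fcrl5. All 10 symbols were in the table, and all 10 genes passed the filter on low values in each of the 3 comparisons. RNA was sequenced from 3 groups of 3 libraries. CD11b+ B cells and CD11b- B cells were sorted from the bone marrow (BM) of wild type C57BL/6 mice 48 h after LPS, given at 5 mg/kg into the peritoneum. LPS is the endotoxin of Gram-negative bacteria. Before that sort, BM cells stained for CD3, CD4, CD8, Gr-1, NK1.1 or TER119, which mark T cells, granulocytes, NK cells and erythroid cells, were removed with magnetic beads. Peritoneal macrophages (PMs, CD11b+F4/80+) came from the peritoneal cavity of naive wild type mice. No group holds B cells of untreated mice, and the macrophages differ from the B cells in tissue and in treatment as well as in cell type, so these cannot be told apart. The labels do not say whether the 3 libraries of a group come from separate mice, so p-values measure the spread between these samples. The study plots such FPKM values with SD error bars, its form for biological replicates.

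Fc receptors bind the constant part of antibodies and so connect antibodies to the cells that respond to them. FcγRI, FcγRIII and FcγRIV (Fcgr1, Fcgr3 and Fcgr4) are activating receptors for IgG on macrophages, monocytes and neutrophils. They signal through the common γ chain encoded by Fcer1g, a short transmembrane protein whose tail carries an immunoreceptor tyrosine-based activation motif (ITAM) that recruits the kinase Syk. FcγRIIb (Fcgr2b) is the inhibitory IgG receptor and the classical Fcγ receptor of mouse B cells, and its tail carries an inhibitory motif (ITIM) that recruits the phosphatase SHIP-1. B cells also carry the IgE receptor CD23 (Fcer2a), the IgM receptor (Fcmr), and Fc receptor-like proteins. Of these, Fcrl1 and Fcrl5 are surface proteins, and Fcrla stays inside the cell.

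The opposite signals of these receptors are written in short coding stretches, shown here because Fcer1g is the gene called between the B cell groups and Fcgr2b the receptor that the activating receptors are set against. Both sequences are from GENCODE M21 transcripts on GRCm38, both lie on the minus strand of chromosome 1, and the capitals mark the codons of the signalling tyrosines. The ITAM of Fcer1g has 15 codons, codons 65 to 79 of 86, in exons 4 and 5 of 5 (chr1:171229889-171230072, with an intron between the exons). The ITIM of Fcgr2b has 6 codons, codons 317 to 322 of 340, in exon 8 of 8 (chr1:170961071-170961088).
Fcer1g ITAM: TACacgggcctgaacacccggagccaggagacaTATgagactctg
Fcgr2b ITIM: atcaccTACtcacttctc

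Fcgr2b and Fcgr3 lie in one cluster and have similar extracellular parts, which bears on how well reads can be assigned to each. Their coding sequences aligned over 717 bases, of which 90.5% were identical. The longest identical run was 129 bases, across exons 3 and 4 of both genes (Fcgr2b chr1:170966674-170968081, Fcgr3 chr1:171054167-171057792, minus strand, an intron between the exons in each), and it is shown to let the overlap be judged.
Fcgr2b and Fcgr3 shared run: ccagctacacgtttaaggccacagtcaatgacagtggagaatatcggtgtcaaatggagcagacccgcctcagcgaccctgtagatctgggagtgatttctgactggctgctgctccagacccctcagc
Of all windows of 50 bases in the transcripts of Fcgr3, 9.58% also occurred in Fcgr2b, and of those of Fcgr2b 4.38% occurred in another gene, most of them in Fcgr3. For Fcer2a the share was 1.165%, and for the other 7 genes it was 0%. No window of 150 bases, the read length before trimming, was shared by any of the 10 genes with another gene, and reads come in pairs. The sources used here do not say how the counting treated reads that match 2 genes, and the part of shared windows in the low Fcgr3 values of B cells was not tested.

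The 10 genes have promoter sequences in the RefSeq-based promoter table (GRCm38.p6), with 13 starts in all. The promoters of Fcer1g and of the activating receptors are shown because they belong to the genes of the γ chain and of the receptors that pair with it. Each line gives 100 bases that end at the last base outside the annotated exons at that start, read on the strand of the gene. Capitals mark GAGGAA or its reverse complement TTCCTC, a sequence contained in the binding site of the myeloid and B cell factor PU.1, and it was the 1 motif searched, on both strands. The positions are chr1:171234366-171234465 (minus) for Fcer1g, chr3:96293970-96294069 (minus) for Fcgr1, chr1:171059404-171059503 (minus) for Fcgr3 and chr1:171018820-171018919 (plus) for Fcgr4.
Fcer1g promoter: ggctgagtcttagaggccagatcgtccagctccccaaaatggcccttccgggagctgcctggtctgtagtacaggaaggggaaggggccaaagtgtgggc
Fcgr1 promoter: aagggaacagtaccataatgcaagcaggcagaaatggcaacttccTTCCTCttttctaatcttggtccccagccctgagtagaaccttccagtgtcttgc
Fcgr3 promoter: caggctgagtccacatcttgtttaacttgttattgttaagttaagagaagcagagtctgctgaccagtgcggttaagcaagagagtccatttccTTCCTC
Fcgr4 promoter: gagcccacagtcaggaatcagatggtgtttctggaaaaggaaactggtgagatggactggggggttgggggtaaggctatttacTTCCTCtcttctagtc
In the 150 bases before the start, 7 of the 13 promoters held the motif, against 14.5% of all 32851 promoters of the table. They belong to 6 of the 10 genes, Fcgr1, Fcgr3, Fcgr4, Fcmr, Fcrla and Fcrl1. The windows of the 2 Fcgr3 starts overlap and hold the same match, which is thus counted at both. The Fcmr match, at -36 from the start, lies in the last 108 bases of its window, which are annotated as exon. The genes with it include both those highest in PMs and those highest in B cells. A match is a description of the letters in this window and not a binding site.

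The libraries held 18014658 to 35251215 reads on genes. Levels are FPKM (reads scaled by the exon length of the gene and by the library's total of reads on genes). Comparisons between genes depend on that length, which was 5790 bases for Fcgr2b, 1736 for Fcgr3, 1256 for Fcgr4 and 2589 for Fcgr1. The 3 values of a group are given in the order of replicates 1, 2 and 3. The summed FPKM of 14 B cell markers, such as Cd79a, was 13415 to 16552 in CD11b+ B cells, 13447 to 15443 in CD11b- B cells and 142 to 277 in PMs. This list includes Fcer2a. Ighm made up the largest part of the sum in B cells, with means of 7598 FPKM in CD11b+ and 5876 in CD11b- B cells. Between these groups 12 of the 14 markers had a negative log2 fold change and 2 a positive one (median -0.17), and none was called (limma). Whether this bears on the Fc receptor values was not tested. Itgam, which encodes the CD11b of the sort, was at 1.58 FPKM in CD11b+ and 0.507 in CD11b- B cells (log2 fold change 0.79, adjusted p = 0.500, limma), and at 288 in PMs. The sum of 15 neutrophil markers was 703, 1654 and 222 in the CD11b+ libraries and 1.92 to 3.27 in the CD11b- libraries. That of 16 monocyte and macrophage markers, a list that includes Itgam, was 316, 293 and 135 against 54.5 to 59.6. Lyz2 made up the largest part of the latter sum, at 65.4 to 261 against 30.1 to 42.2 FPKM. In a bulk library, fewer cells of a type and less RNA per cell cannot be told apart.

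**Figure D1:**
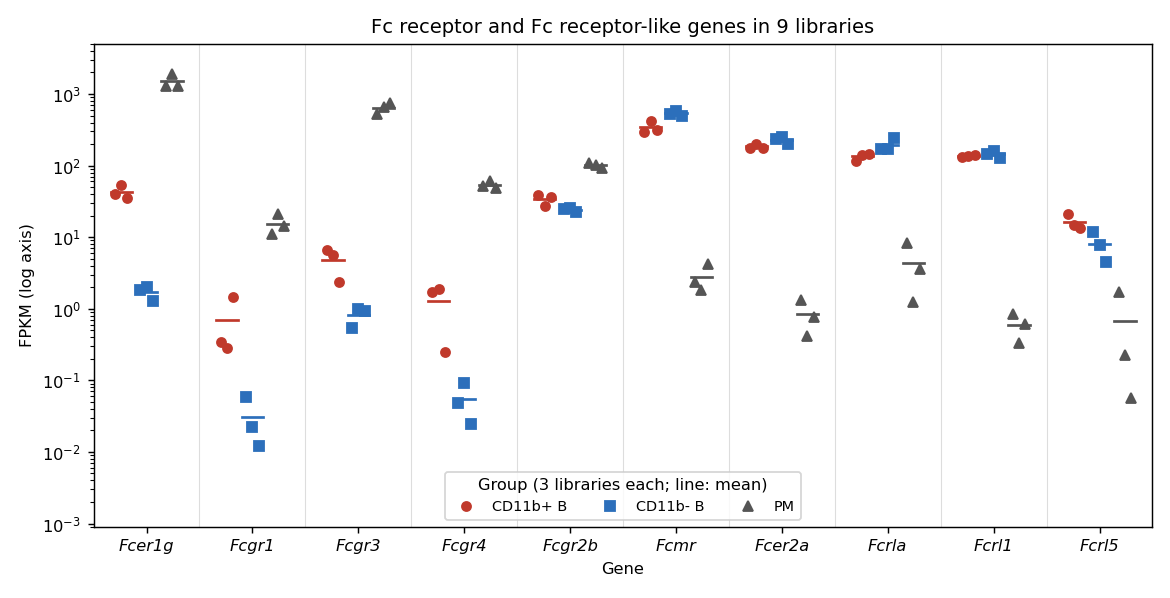
FPKM of the 10 genes (log axis) in each of the 9 libraries, with CD11b+ B cells as circles, CD11b- B cells as squares, PMs as triangles and group means as lines. Fcer1g, Fcgr1, Fcgr3 and Fcgr4 run from PMs down to CD11b- B cells with CD11b+ B cells in between, while Fcmr, Fcer2a, Fcrla and Fcrl1 lie above 110 FPKM in both B cell groups and under 9 in PMs.

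The first question was which of these genes differ between CD11b+ and CD11b- B cells of the BM after LPS. Of the 10 genes, Fcer1g rose in CD11b+ B cells, and no other passed the test. Among all 21778 genes tested 0.0689% were called higher and 0% lower. The libraries of the 2 groups did not overlap for 8 of the 10 genes, 6 higher and 2 lower in CD11b+ B cells, where 14.9% of all genes tested showed no overlap (8.63% higher, 6.32% lower). The same 6 and 2 genes had an unadjusted p under 0.05, against 7.68% of all genes in either direction. The median log2 fold change was 0.55 over the 10 genes and 0.03 over all genes tested.

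Fcer1g, the γ chain that carries the activating motif, was at 40.6, 53.9 and 35.5 FPKM in CD11b+ B cells, which rests on 1042, 1233 and 1093 reads. In CD11b- B cells it was at 1.82, 2.03 and 1.28 FPKM, or 53, 62 and 36 reads. The lowest CD11b+ library was 17.5-fold above the highest CD11b- library. The means, 43.3 ± 9.51 and 1.71 ± 0.385 FPKM (SD, n = 3 each), differed 25.3-fold (log2 fold change 4.02, SE 0.21, 95% interval 3.54 to 4.496, adjusted p = 0.00115, limma). The exact permutation test of the means gave p = 0.1, the lowest that 3 against 3 libraries can give. With each library left out in turn, the log2 fold change ranged from 3.85 to 4.15 and the call held. It was lost with a replicate block by description number, under which 2 pairs of libraries share a number (log2 fold change 3.94, adjusted p = 0.656, limma). Only the 2 pairs inform the difference in that fit, so it has little power, and the log2 fold change moved little.

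Tyrobp, which encodes DAP12, the other ITAM adaptor of myeloid cells, differed far less. It was at 74.1, 94.1 and 76.3 FPKM in CD11b+ and at 38.2, 57.3 and 55.4 in CD11b- B cells, a 1.62-fold difference of means (log2 fold change 0.70, adjusted p = 0.408, limma). CD11b- B cells thus held more Tyrobp than Fcer1g in every library. The ratio of Fcer1g to Tyrobp was 0.548, 0.573 and 0.465 in CD11b+ B cells and 0.0475, 0.0355 and 0.0232 in CD11b- B cells (exact permutation test, two-sided, p = 0.1). In PMs it was 0.503, 0.486 and 0.417, a range that overlaps that of the CD11b+ libraries (exact permutation test, p = 0.3).

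The activating IgG receptors that pair with the γ chain were low in both B cell groups. Fcgr3, the most abundant of them, was at 6.55, 5.66 and 2.37 FPKM in CD11b+ and 0.535, 0.990 and 0.934 in CD11b- B cells. The ranges did not overlap and the means differed 5.93-fold, but the gene did not pass the test (log2 fold change 1.61, SE 0.35, adjusted p = 0.267, limma). Fcgr4 was at 1.71, 1.92 and 0.248 FPKM in CD11b+ B cells, or 63, 63 and 11 reads, and at 0.0477, 0.0913 and 0.0248 in CD11b- B cells, or 2, 4 and 1 reads. Replicate 3 of the CD11b+ B cells was well under the other 2 and still above every CD11b- library (log2 fold change 1.02, SE 0.32, adjusted p = 0.507, limma). Fcgr1, the high-affinity receptor, was at 0.342, 0.280 and 1.47 FPKM in CD11b+ B cells, or 26, 19 and 134 reads, and at 0.0579, 0.0221 and 0.0120 in CD11b- B cells, or 5, 2 and 1 reads. Here replicate 3 of the CD11b+ B cells was the highest (log2 fold change 0.65, SE 0.25, adjusted p = 0.636, limma). For genes this low, the pseudocount of 1 holds the log2 fold change well under the ratio of the means, which was 23.6 for Fcgr4 and 22.7 for Fcgr1. Single libraries set much of these ratios. Without CD11b+ replicate 3 that of Fcgr1 was 10.1 (log2 fold change 0.35, adjusted p = 0.439, limma), and without CD11b- replicate 1 it was 40.8. That of Fcgr4 was 35.6 without CD11b- replicate 2. On whole reads recovered from the FPKM, the count model of DESeq2 called 4 of the 10 genes higher, these 3 receptors and Fcer1g (1.89% of all its genes were called higher), and 1 lower, Fcmr (0.369%), while edgeR called Fcer1g higher and no other (0.269%).

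Replicate 3 of the CD11b+ B cells therefore had another mix of activating receptors than the other 2 libraries. Fcgr1 made up 35.9% of the summed FPKM of the 3 activating receptors there, against 3.98% and 3.57% in replicates 1 and 2. Fcgr4 made up 6.08% there, against 19.9% and 24.4%. That library also had the lowest sums of neutrophil and of monocyte and macrophage markers in the group, and the lowest Fcer1g.

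Fcgr2b, the inhibitory IgG receptor, was well expressed in all libraries. It was at 38.4, 26.9 and 36.3 FPKM in CD11b+ B cells, at 25.04, 25.8 and 22.3 in CD11b- B cells and at 109, 101 and 92.8 in PMs. The lowest CD11b+ library was 1.05-fold the highest CD11b- library, and the difference did not pass the test (1.39-fold, log2 fold change 0.45, SE 0.16, adjusted p = 0.614, limma).

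Set against each other within a library, the activating receptors (Fcgr1, Fcgr3 and Fcgr4 summed) reached 0.224, 0.292 and 0.112 of Fcgr2b in CD11b+ B cells. The ratio was 0.0256, 0.0428 and 0.0436 in CD11b- B cells and 5.39, 7.42 and 8.72 in PMs. Fcgr2b was thus the main Fcγ receptor transcript of both B cell groups, with 77.4% to 89.9% of the 4 in CD11b+ and 95.8% to 97.5% in CD11b- B cells. In PMs it was 10.3% to 15.7% of the 4. These shares depend on the exon lengths, and over the 3 PM libraries Fcgr2b had 39339 reads and Fcgr3 76488. On the log2 scale the ratio differed by 2.41 between CD11b+ and CD11b- B cells, by -5.18 between CD11b+ B cells and PMs and by -7.58 between CD11b- B cells and PMs (two-sided exact permutation test, p = 0.1 for each, the lowest possible).

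The γ chain was in greater excess over its IgG receptors in CD11b+ B cells than in the other groups. Fcer1g per summed activating receptor was 4.72, 6.86 and 8.68 in CD11b+ B cells, 2.84, 1.84 and 1.32 in CD11b- B cells and 2.20, 2.57 and 1.58 in PMs. The CD11b+ libraries lay above all others (exact permutation test, p = 0.1 against each group), while CD11b- B cells and PMs overlapped (exact permutation test, p = 0.9).

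**Figure D2:**
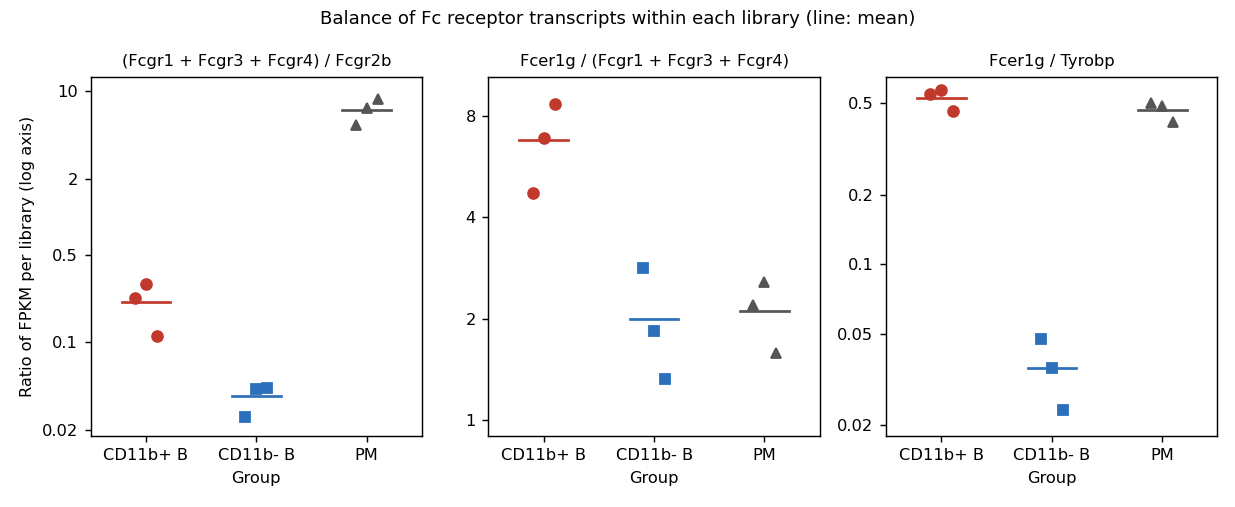
Ratios of FPKM within each library (log axes), by group, with the mean as a line: the summed activating receptors over Fcgr2b, Fcer1g over the activating receptors, and Fcer1g over Tyrobp. In the first panel CD11b+ B cells lie at 0.112 to 0.292, between CD11b- B cells and PMs, in the second they lie above both, and in the third their range overlaps that of PMs.

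Receptors that B cells are known for stood at high levels in both B cell groups. Fcmr, the IgM receptor, was the most abundant of the 10 genes in B cells, at 294, 419.5 and 314 FPKM in CD11b+ and 532, 574 and 498 in CD11b- B cells. Every CD11b+ library was under every CD11b- library and the mean was 64.1% of that of CD11b- B cells, but the difference did not pass the test (log2 fold change -0.66, SE 0.19, adjusted p = 0.460, limma). Fcer2a, the low-affinity IgE receptor of mature B cells, was at 174, 204 and 177 FPKM in CD11b+ and 234, 254 and 203 in CD11b- B cells. The ranges overlapped (log2 fold change -0.31, SE 0.15, adjusted p = 0.676, limma).

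The Fc receptor-like genes did not share a direction. Fcrla was at 116, 141 and 146 FPKM in CD11b+ and 169.9, 172 and 243 in CD11b- B cells, without overlap (log2 fold change -0.52, SE 0.18, adjusted p = 0.583, limma). The processed pseudogene Gm2962 lies within Fcrla on the same strand, and it was listed at 23.2 and 20.3 FPKM in these groups. Fcrl1 was at 134, 134 and 141 FPKM in CD11b+ and 147, 162 and 127 in CD11b- B cells, and its log2 fold change of -0.08 had a 95% interval of -0.40 to 0.24 (adjusted p = 0.841, limma). Fcrl5, which in the mouse is known from marginal zone and B1 B cells, was at 21.1, 15.0 and 13.6 FPKM in CD11b+ and 11.9, 7.67 and 4.57 in CD11b- B cells. Its ranges did not overlap and the means differed 2.06-fold (log2 fold change 1.02, SE 0.31, adjusted p = 0.499, limma). Summed, the 5 B cell genes (Fcmr, Fcer2a, Fcrla, Fcrl1 and Fcrl5) came to 739 to 913 FPKM in CD11b+ and 1076 to 1169 in CD11b- B cells, without overlap (exact permutation test, p = 0.1).

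**Figure D3:**
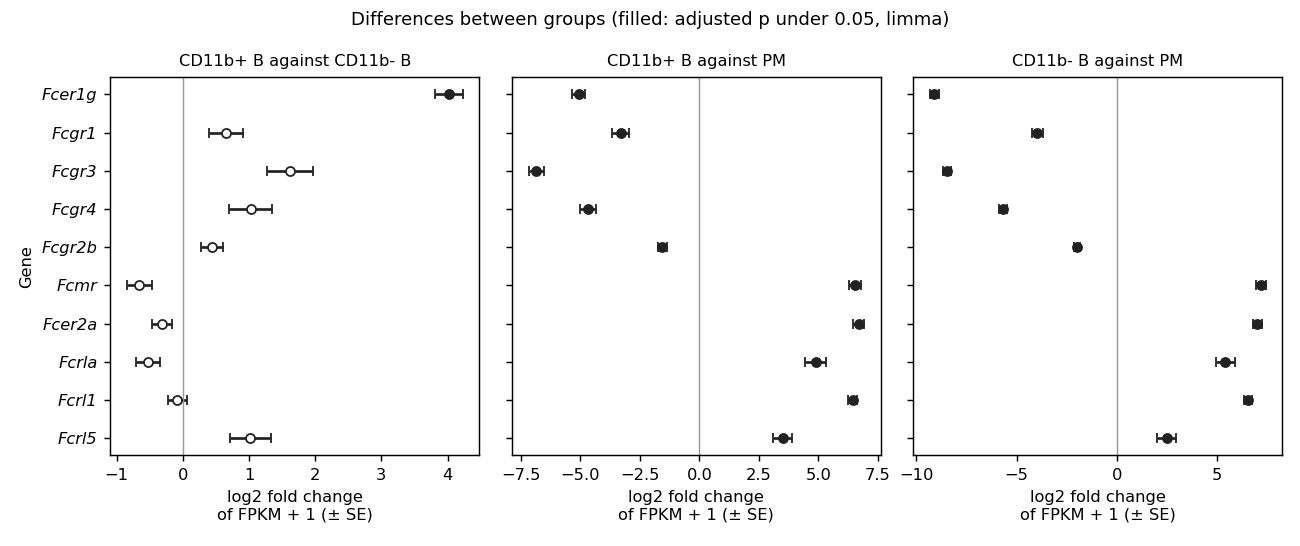
Log2 fold change of FPKM + 1 (points, ± SE) of each gene in the 3 comparisons, 3 libraries against 3, with filled points for an adjusted p under 0.05. Fcer1g is the 1 filled point in CD11b+ against CD11b- B cells, and all 10 are filled in both comparisons with PMs.

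The second question was how the B cells compare with macrophages. All 10 genes passed the test in CD11b+ B cells against PMs, where 30.3% of 22102 genes were called (21.5% higher, 8.78% lower), and in CD11b- B cells against PMs, where 36.7% of 20985 genes were called (25.8% higher, 11% lower). In both, Fcmr, Fcer2a, Fcrla, Fcrl1 and Fcrl5 were higher in B cells, and Fcer1g, Fcgr1, Fcgr2b, Fcgr3 and Fcgr4 were lower. The 2 comparisons share the PM libraries. The median log2 fold change of all genes was 0.25 and 0.24 in these comparisons, and median-ratio scaling and quantile normalization moved it by -0.19 to -0.14 without turning the sign of any of the 10 genes. The balance of all calls did depend on the scaling. Of CD11b+ B cells against PMs 4760 genes were called higher and 1940 lower, and after quantile normalization 2706 and 2700. Of CD11b- B cells against PMs the counts were 5404 and 2306, and after quantile normalization 3415 and 3099.

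Fcer1g was at 1293, 1925 and 1280.45 FPKM in PMs, so CD11b+ B cells reached 2.89% of the PM mean (log2 fold change -5.08, adjusted p = 5.33e-06, limma) and CD11b- B cells 0.114% (log2 fold change -9.10, adjusted p = 3.26e-07, limma). Fcgr3 was at 525, 669 and 747 FPKM in PMs, of which CD11b+ B cells had 0.751% and CD11b- B cells 0.127%. Fcgr4, at 52.5, 60.0 and 48.3 FPKM in PMs, stood at 2.41% and 0.102%, and Fcgr1, at 11.0, 21.3 and 14.3, at 4.49% and 0.198%. Single B cell libraries moved some of these shares. Without CD11b+ replicate 3 that of Fcgr1 was 2.005%, without CD11b- replicate 1 it was 0.110%, and without CD11b- replicate 2 that of Fcgr4 was 0.0677%. Fcgr2b had the smallest of these differences, with CD11b+ B cells at 33.5% and CD11b- B cells at 24.1% of the PM mean (log2 fold changes -1.56 and -2.01). Among IgG receptors the order within a library was therefore Fcgr3 over Fcgr2b in PMs and Fcgr2b over Fcgr3 in every B cell library.

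The B cell receptors were low in PMs but above 0. Fcmr was at 2.40, 1.83 and 4.17 FPKM, Fcrla at 8.21, 1.24 and 3.61, Fcer2a at 1.31, 0.421 and 0.769, Fcrl1 at 0.858, 0.337 and 0.612, and Fcrl5 at 1.74, 0.226 and 0.0570. For 4 of the 5 the first PM library was the highest. This library also had the highest sum of B cell markers (277 FPKM, against 142 and 163), a list that includes Fcer2a. The part of B cells in these values was not tested. CD11b+ B cells had 122-fold the PM mean of Fcmr, 222-fold that of Fcer2a, 226-fold that of Fcrl1, 30.8-fold that of Fcrla and 24.6-fold that of Fcrl5. Without the first PM library these folds were 55.4 for Fcrla and 117 for Fcrl5.

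The sums of neutrophil and of monocyte and macrophage markers were, like Fcer1g, higher in each CD11b+ library than in any CD11b- library. Of 15 neutrophil markers 15 had a positive log2 fold change (median 3.63), and S100a8, S100a9 and Retnlg were called higher. Of 15 monocyte and macrophage markers tested 14 had a positive log2 fold change (median 0.99) and none was called (limma), though 10 had an unadjusted p under 0.05. On whole reads edgeR called 10 of 14 neutrophil and 1 of 14 monocyte and macrophage markers higher, and DESeq2 called 14 of 15 and 9 of 16. No marker of these 2 lists was at 0 in all CD11b+ libraries. Among the CD11b+ libraries, Fcer1g varied 1.52-fold from lowest to highest, the neutrophil sum 7.44-fold and the monocyte and macrophage sum 2.35-fold, and replicate 3 was the lowest in all 3. Fcgr3 and Fcgr4 were also lowest in replicate 3, varying 2.76-fold and 7.71-fold, while Fcgr1 was highest there. In PMs the neutrophil sum was 86.8 to 112 FPKM and the monocyte and macrophage sum 20952 to 55939. The part of such cells in the Fc receptor values was not tested.

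**Figure D4:**
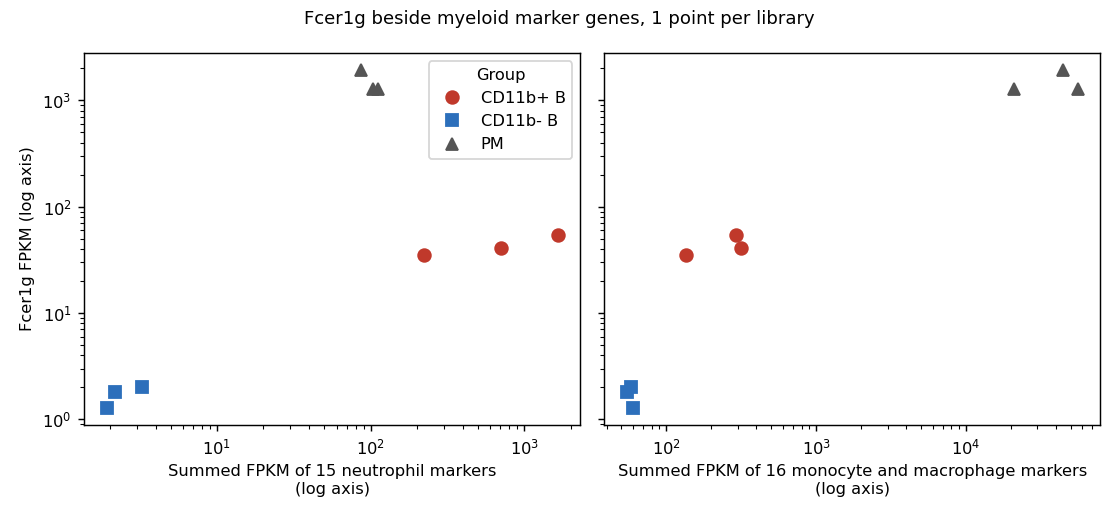
Fcer1g FPKM against the summed FPKM of neutrophil markers (left) and of monocyte and macrophage markers (right) in the 9 libraries, log axes. The CD11b+ libraries lie at 35.5 to 53.9 FPKM of Fcer1g with neutrophil sums of 222 to 1654, and PMs lie far above them in Fcer1g with lower neutrophil sums.

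The same sums were taken for markers of other cell types. Basophil and mast cell markers, which include the other chains of the high-affinity IgE receptor (Fcer1a and Ms4a2), summed to 3.06 to 4.43 FPKM in CD11b+ and 0.142 to 0.153 in CD11b- B cells, and none of the 8 was called by limma (1 had an unadjusted p under 0.05). DESeq2 called 1 of 8, and edgeR none of the 2 it tested. NK cell markers summed to 1.04 to 6.11 against 0.577 to 1.54 FPKM, with Klrb1c at 0 in all CD11b+ libraries and none of 4 tested genes called by limma (2 with an unadjusted p under 0.05). DESeq2 called 1 of the 3 it tested, and edgeR tested 1 and did not call it. Plasma cell markers summed to 252 to 641 FPKM in CD11b+ and 101 to 179 in CD11b- B cells, with none of 7 called by limma (4 with an unadjusted p under 0.05), none by edgeR and 2 by DESeq2. Among the CD11b+ libraries Fcrl5 was lowest in replicate 3, the one with the highest plasma cell sum. Erythroid markers summed to 42.4 to 52.2 FPKM in CD11b+ and 9.14 to 28.7 in CD11b- B cells, without overlap, and none of 8 was called by limma (4 with an unadjusted p under 0.05), none of 7 by edgeR and none of 8 by DESeq2. Dendritic cell markers summed to 62.2 to 88.9 against 47.0 to 52.1 FPKM, also without overlap, and none of 9 was called by limma (2 with an unadjusted p under 0.05), edgeR or DESeq2. Bst2 made up most of this sum, at 51.5 to 78.0 against 38.2 to 45.2 FPKM. The sums of T cell markers (13.2 to 22.4 against 11.6 to 19.6 FPKM) and of megakaryocyte and platelet markers (11.9 to 16.2 against 9.38 to 17.8 FPKM) overlapped. Most of the T cell sum was Lck, at 12.3 to 19.4 against 11.6 to 18.4 FPKM. Of the T cell markers limma called none of 7 (none with an unadjusted p under 0.05), edgeR none of 4 and DESeq2 1 of 6, and of the megakaryocyte and platelet markers limma called none of 5 (none with an unadjusted p under 0.05), edgeR none of 2 and DESeq2 none of 6. The part of these cells in the Fc receptor values was not tested.

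The further genes of the pathway were read from lists of other Fc-binding receptors, of activating and inhibitory signalling molecules, and of antibody constant genes. Between CD11b+ and CD11b- B cells, none of the 11 other Fc-binding and related receptors tested was called by limma (7 positive, 4 negative, median log2 fold change 0.14, 2 with an unadjusted p under 0.05). edgeR tested 8 and DESeq2 10 of them, and neither called any. Fcgrt, the neonatal Fc receptor that recycles IgG inside cells, was at 10.8, 11.3 and 12.6 FPKM in CD11b+ and 8.27, 8.70 and 8.28 in CD11b- B cells (log2 fold change 0.41, adjusted p = 0.595, limma). Of 18 genes of activating signalling none was called by limma and 14 had a negative log2 fold change (median -0.27, 3 with an unadjusted p under 0.05). edgeR called none of them, and of the genes reported here DESeq2 called Lcp2 higher. Of 11 genes of inhibitory signalling none was called by limma (4 positive, 7 negative, median -0.06, 1 with an unadjusted p under 0.05), edgeR or DESeq2. Syk, the kinase that binds the phosphorylated ITAM, was at 104, 116 and 114 FPKM in CD11b+ and 126, 119.9 and 156 in CD11b- B cells, without overlap and without passing the test (log2 fold change -0.26, adjusted p = 0.697, limma).

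Of 8 heavy chain constant genes, which encode the parts of antibodies that these receptors bind, Ighg2c was called. It was at 14.9, 29.6 and 37.1 FPKM in CD11b+ and 0.0226, 1.21 and 0.118 in CD11b- B cells (log2 fold change 4.28, adjusted p = 0.0184, limma). Of 7 tested by each, DESeq2 called Ighg2c, Ighg3 and Igha higher, and edgeR called none. Ighg3 was at 22.9, 18.2 and 34.0 FPKM against 3.41, 2.85 and 0.546 and did not pass the test (log2 fold change 3.09, adjusted p = 0.0721, limma). Constant genes of the IgG subclasses are similar in sequence, and the sources used here do not say how the counting split such reads.

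Against PMs the signalling lists moved in both directions. Of the 18 activating genes, 12 passed the test in CD11b+ B cells (8 upward and 4 downward) and 14 in CD11b- B cells (10 upward and 4 downward). The adaptor of B cells, Blnk, was higher (log2 fold change 3.67 and 3.74), as were Syk (1.79 and 2.04) and Vav1 (1.62 and 1.99), while the adaptor of myeloid cells and T cells, Lcp2, was lower (-4.10 and -5.04), as was Gab2 (-2.46 and -1.95). Vav3 was lower by the same test in CD11b+ B cells (-1.64), and Fgr in CD11b- B cells (-1.54). Of the 11 inhibitory genes 5 were called higher and 2 lower in each comparison by limma. On whole reads edgeR and DESeq2 each called 3 higher and 4 lower in CD11b+ and 4 higher and 4 lower in CD11b- B cells, so the balance of this list depended on the tool. Ptpn6, which encodes the phosphatase SHP-1, was higher (1.93 and 2.41), as were Cblb (1.76 and 2.20) and Csk (1.76 and 1.90), and Dok2 (-5.85 and -6.27) and Inppl1 (-1.04 and -1.03) were lower. Among the other receptors, Fcrls (-5.39 and -5.44), Tyrobp (-5.26 and -5.96) and Fcgrt (-3.71 and -4.12) were lower, and the complement receptor gene Cr2 (4.79 and 4.85), Trim21 (1.54 and 1.87) and Fcamr (1.11 and 1.65) were higher. Fcrls was at 36.9, 53.6 and 42.6 FPKM in PMs and under 0.1 FPKM in each B cell library. Ighd (6.86 and 6.93) and Ighm (6.40 and 6.04) were the called constant genes with the largest differences, followed among called genes by Ighg2b in CD11b+ (4.89) and Igha in CD11b- B cells (1.48). Ighg2b had a log2 fold change of 2.14 in CD11b- B cells against PMs and did not pass the test (adjusted p = 0.0950, limma).

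The genes with the pattern closest to each of the 10 over the 9 libraries were found by the Euclidean distance of centred log2(FPKM + 1) among 12240 genes. Those closest to Fcer1g were Ifitm6, Ifitm3 and Lrg1, at distances of 2.68, 2.80 and 2.90. Ifitm6 was at 10.4, 0.219 and 236 FPKM on average in CD11b+ B cells, CD11b- B cells and PMs. For Fcgr3 they were Ccl6, Cd14 and Ifitm3 (1.23 to 1.29), for Fcgr4 Csf3r, Cd9 and C3 (0.717 to 0.839), and for Fcgr1 Hfe, Plod1 and P2rx1 (0.582 to 0.867). For Fcgr2b they were Jdp2, Phactr2 and Abi2 (0.418 to 0.563). Fcer2a was closest to Srpk3, Tnfrsf13c, which encodes the BAFF receptor, and Fcrl1 (0.456 to 0.651), and Fcrl1 to Scd1, Cd79a and Srpk3 (0.519 to 0.603). Fcmr was closest to Scd1, Fcer2a and Srpk3 (0.833 to 0.959), Fcrla to H2-Q5, H2-Ob and Acap1 (1.04 to 1.07), and Fcrl5 to Fignl1, Tipin and Lig1 (1.002 to 1.14). These distances are descriptions.

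Of the 10 genes, 5 lie close together on chromosome 1 (GRCm38, GENCODE M21): Fcrla at chr1:170917576-170927583, Fcgr2b at chr1:170958617-170976547, Fcgr4 at chr1:171018920-171029761, Fcgr3 at chr1:171051174-171064935 and Fcer1g at chr1:171229572-171234365. Fcrla, the first of the 5, had a higher mean in both B cell groups than in PMs. Fcgr2b, Fcgr4, Fcgr3 and Fcer1g, which follow it, had higher means in PMs. Between the first and the last of the 5 genes, over 316790 bases, lie 15 other annotated genes. Of these 12 were in the table and 8 were tested, and none was called between CD11b+ and CD11b- B cells (limma). Gm38204, an antisense gene that overlaps Fcgr2b, was at 0.0463 FPKM or less on average in every group. Those with a mean of at least 1 FPKM in any group were Gm2962, Gm10522, Sdhc and Tomm40l, with adjusted p values of 0.675 to 0.909. The other members are apart from these: Fcmr at chr1:130865669-130880791, Fcrl1 at chr3:87376387-87402934, Fcrl5 at chr3:87435773-87500678, Fcgr1 at chr3:96282909-96293969 and Fcer2a at chr8:3681737-3694175.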

How the data were processed

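The authors made cDNA libraries with a SMART-seq HT kit, sequenced read pairs, trimmed them (Trim Galore 0.4.4, Trimmomatic 0.36 and cutadapt 1.16), mapped them to GRCm38 with STAR 2.7.2b and counted reads on genes with featureCounts 1.6.1. The labels also list GRCm39, and the strand setting is not stated in the sources used here. The table of FPKM that the authors deposited holds 55322 genes. The authors' second table, a normalized signal of 11063 genes, holds counts after division by a DESeq2 1.20.0 size factor. Positions are those of GENCODE M21 on GRCm38, by gene identifier.

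What follows was computed here. FPKM times exon length gave whole reads for 100% of values, within 0.05 of a read, and 100% of the values of the second table came from these same reads. The main test was limma 3.58.1 (lmFit, then eBayes with trend) on log2(FPKM + 1), two-sided, fitted to the 6 libraries compared. Genes were tested if their mean FPKM was 0.05 or more. P-values were adjusted by Benjamini-Hochberg over all genes tested, with a threshold of 0.05. The pseudocount understates changes of low genes. Single values and ratios (pseudocount 0.01 for the receptor ratio) were tested by exact two-sided permutation. Reads are not molecules, since the cDNA was amplified without molecular identifiers. The test scripts were checked on simulated data. edgeR 4.0.16 and DESeq2 1.42.0 on the whole reads were among the alternatives.

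All 10 genes are named. Of the receptor, signalling and constant gene lists, genes called between the B cell groups and, against PMs, the 3 called genes with the largest change in each direction are named. Fcgrt, Syk, Lcp2, Ighg3 and Igha in the comparison of the B cell groups, Ighg2b in CD11b- B cells against PMs, and Ifitm6, were picked after their values were seen. The members and lists were chosen with earlier results of these data known. Part of the results of the signalling lists is not reported here.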

Additional observations from a re-analysis of the deposited data

How the results depend on the processing

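In both comparisons with PMs, the 5 genes called higher and the 5 called lower stayed at 5 and 5 under each of the 17 alternatives to the test in each comparison. One of these, edgeR on the reads of the second table, covers only genes that were already selected by p-value. In CD11b+ against CD11b- B cells the count of genes called higher was 1 under 16 of 18 alternatives, and 1 with each library left out in turn. DESeq2 on whole reads called 4 higher (Fcer1g, Fcgr1, Fcgr3 and Fcgr4, log2 fold changes 4.64, 4.49, 2.54 and 4.53, adjusted p = 1.50e-48, 0.00331, 6.46e-05 and 0.00482) and 1 lower (Fcmr, -0.66, adjusted p = 0.0483), where it called 1.89% of 17324 genes higher and 0.369% lower. The cause of the difference from limma was not tested. edgeR on the same reads called Fcer1g alone (0.269% of 15588 genes). The libraries share replicate numbers in their titles. These were not taken as pairs, since the labels do not say that a number marks a shared mouse or day. Same-numbered CD11b+ and CD11b- libraries deviated together with r = 0.28, -0.02 and 0.21. The 2 pairs that also share a description number are those with 0.28 and 0.21, and the pair with -0.02 shares the title number alone. CD11b+ and CD11b- libraries with different title numbers had r of -0.30 to 0.14. Whether these libraries are paired was not tested. No call among the 10 genes changed with a replicate block by title number, the count staying at 1 (Fcer1g adjusted p = 0.00288). With a replicate block by description number, which leaves 2 pairs, the count was 0 (Fcer1g log2 fold change 3.94, adjusted p = 0.656), and Fcrl1 turned from -0.08 to 0.0099 (adjusted p = 1). Only the 2 pairs inform the group difference in that fit, so it has little power and the lost call decides little. In both comparisons with PMs, median-ratio scaling also moved the balance of all calls, to 2922 higher and 2566 lower for CD11b+ and 3411 and 3088 for CD11b- B cells. With a minimum mean FPKM of 1, Fcgr1 and Fcgr4 were not tested between the B cell groups. The receptor ratio between CD11b+ and CD11b- B cells was 2.11 to 2.80 on the log2 scale with a library left out, 2.01 for Fcgr3 alone and 3.55 for Fcgr4 alone. The count of all genes called between the B cell groups, 15 higher and 0 lower as reported, ranged from 0 to 328 and from 0 to 64, and that of CD11b+ B cells against PMs, 4760 and 1940 as reported, from 2706 to 5658 and from 1348 to 3404. The 7 to 8 reads of Fcgr4 and Fcgr1 over the 3 CD11b- libraries limit their ratios.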
